A study of Mus musculus with 3 samples.

Results

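Peaks of 5-hydroxymethylcytosine (5hmC) in mouse bone marrow were not spread evenly along the chromosomes, and the windows described here are those where they were packed most closely. The autosomes were divided into 100 kb windows starting at multiples of 100000 bp, and a window was called dense when it held the midpoints of 40 or more distinct peaks. Of 24041 windows, 1272 (5.29%) were dense, and they held 67290 of 207188 autosomal peaks (32.5%). The windows were chosen by their peak counts, so their counts are a description and carry no test. The dense windows overlapped 3184 of 20556 autosomal protein-coding genes (15.5%), and that share is the background for every gene list below.

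The series has 3 samples of genomic DNA from mouse bone marrow cells. One is from normal marrow and 2 are replicates of an acute myeloid leukaemia called NIDF-AML, driven by FLT3-ITD, DNMT3A/R882H, the NPM1 mutant NPMc and IDH2/R140Q together. The labels name no strain or age and do not say how the mutations were delivered. The peaks come from the lists of the 2 leukaemia replicates, whose 223267 lines were identical, so they make up 1 list and no replicate spread can be given. Per the file headers, both lists have the library with index 4 as the treatment, with index 5 as control in one list and index 6 in the other. Which sample carries index 4 is not given in the sources used, and it may be the normal marrow. The values below are therefore those of peaks of the index 4 library, called against a control library. If the controls are other samples of the series, a peak may also depend on the 5hmC of that sample, which cannot be told from the lists. Normal marrow and leukaemia were not compared here. In mixed marrow cells, a cell type that is rare and one with little 5hmC cannot be told apart. Read depth is unknown, and a place without a listed peak is not a place shown to lack 5hmC.

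5hmC is made when TET enzymes oxidise 5-methylcytosine, with oxygen and 2-oxoglutarate as cosubstrates. It is typically found across the bodies of transcribed genes and at enhancers, and it is scarce where cytosines are unmethylated, as at most CpG-rich gene starts. In blood-forming cells TET2 is often mutated in leukaemia, and mutant IDH2 makes 2-hydroxyglutarate, which inhibits TET enzymes.

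The dense windows held 169 of 919 autosomal miRNA hairpins (18.4%), for which RefSeq (assembly GRCm38.p6, with the same chromosomes as the mm10 build) gives 282 mature sequences. Those below are shown because several are well known in blood cells and because the last pair shares a seed. They were chosen after the table had been seen. Capitals mark the seed, bases 2 to 8.
miR-142a-5p (chr11:87756867-87756887, plus strand): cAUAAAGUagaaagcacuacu
miR-142a-3p (chr11:87756903-87756925, plus strand): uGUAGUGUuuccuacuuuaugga
miR-126a-3p (chr2:26591402-26591423, plus strand): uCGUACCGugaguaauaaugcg
miR-139-5p (chr7:101475382-101475403, plus strand): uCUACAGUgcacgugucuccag
miR-146b-5p (chr19:46342790-46342811, plus strand): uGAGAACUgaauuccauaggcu
miR-342-3p (chr12:108658680-108658702, plus strand): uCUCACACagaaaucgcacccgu
miR-34a-5p (chr4:150068473-150068494, plus strand): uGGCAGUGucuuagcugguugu
miR-22-3p (chr11:75463772-75463793, plus strand): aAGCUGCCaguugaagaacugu
miR-26a-5p (chr9:119031811-119031832, plus strand): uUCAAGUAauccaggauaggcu
miR-26b-5p (chr1:74394324-74394344, plus strand): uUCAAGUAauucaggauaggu

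miR-142, one of the most abundant miRNAs of blood cells, lay in a window of 66 peaks, with the nearest peak midpoint 1433 bp from its hairpin. miR-126a, known from endothelium and blood stem cells, lies within Egfl7, and a peak midpoint was 63 bp from its hairpin, in a window of 58 peaks. miR-139 lies within Pde2a, a phosphodiesterase gene, in a window of 60 peaks, 7 of them within 5 kb of the hairpin. miR-342 lies within Evl, an actin regulator, in a window of 50 peaks, of which 1 was within 5 kb. miR-146b, which dampens NF-κB signalling, lay in a window of 48 peaks. miR-34a, a p53 target, and miR-22, which is known to target TET genes, lay in windows of 66 and 45 peaks. miR-26a and miR-26b share the seed UCAAGUA and lie within the related phosphatase genes Ctdspl and Ctdsp1. Their windows, on different chromosomes, held 49 and 45 peaks, with a midpoint 128 and 176 bp from the hairpin. These miRNAs thus lay in dense windows, but the distance to the nearest peak ranged from 63 to 3357 bp.

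The sequence around gene starts in dense windows came from the RefSeq promoter table, which gives 250 bases before and 50 after each start. Of its 16456 autosomal starts, 1 per gene, 2118 (12.9%) lay in dense windows. Only 9840 of the 16456 were at the outer end of the gene's span. The others may be internal, here and wherever starts are counted below. A start was called CpG-rich when its 300 bases had an observed to expected CpG ratio of at least 0.6 and a GC content of at least 50%, and CpG-poor otherwise. Of 92 starts of listed genes in dense windows, 39 were CpG-rich and none of these had a peak over the 300 bases, while 5 of the 53 CpG-poor starts had one. All 5 are shown, the 250 bases before the start, written 5′ to 3′ on the gene's strand with each CG in capitals. Apart from Cd5 they were chosen after their values were seen.
Ptpn6 (chr6:124738710-124738959, minus strand): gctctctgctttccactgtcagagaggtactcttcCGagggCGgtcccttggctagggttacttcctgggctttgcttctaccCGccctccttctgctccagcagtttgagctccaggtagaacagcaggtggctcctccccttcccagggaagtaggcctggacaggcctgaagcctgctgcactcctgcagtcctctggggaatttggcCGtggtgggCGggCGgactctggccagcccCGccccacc
Stat5a (chr11:100859406-100859655, plus strand): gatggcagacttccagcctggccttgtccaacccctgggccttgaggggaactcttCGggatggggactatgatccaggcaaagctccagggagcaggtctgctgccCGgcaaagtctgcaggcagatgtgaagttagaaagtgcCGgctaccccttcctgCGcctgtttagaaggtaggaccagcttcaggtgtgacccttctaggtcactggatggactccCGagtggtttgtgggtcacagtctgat
Cd5 (chr19:10738975-10739224, minus strand): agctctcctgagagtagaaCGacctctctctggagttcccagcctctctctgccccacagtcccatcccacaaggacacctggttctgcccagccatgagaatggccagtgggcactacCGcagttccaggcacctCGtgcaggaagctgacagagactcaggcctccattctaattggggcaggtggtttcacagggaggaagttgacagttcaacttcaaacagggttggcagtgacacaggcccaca
Dnmt3l (chr10:78042037-78042286, plus strand): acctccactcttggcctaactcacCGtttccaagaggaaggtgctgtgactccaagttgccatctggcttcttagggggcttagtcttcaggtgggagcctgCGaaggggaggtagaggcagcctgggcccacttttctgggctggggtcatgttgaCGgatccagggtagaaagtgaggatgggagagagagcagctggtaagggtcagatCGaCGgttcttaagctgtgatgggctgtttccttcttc
Car9 (chr4:43506776-43507025, plus strand): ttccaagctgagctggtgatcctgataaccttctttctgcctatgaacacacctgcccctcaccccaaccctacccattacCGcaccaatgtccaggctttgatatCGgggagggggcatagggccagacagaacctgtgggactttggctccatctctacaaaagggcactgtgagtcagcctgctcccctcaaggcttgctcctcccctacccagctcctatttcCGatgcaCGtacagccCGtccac

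Ptpn6 encodes the phosphatase SHP-1, which restrains signalling in blood cells, and its stretch held 7 CG. The midpoint of its peak lay 59 bp from the start. Stat5a, a transcription factor activated by cytokine receptors, had 5 CG and a midpoint 104 bp away. Cd5, an inhibitory receptor of T cells, had 3 CG and a midpoint 267 bp away, just beyond the stretch, which the peak overlapped by its near edge at 240 bp. Dnmt3l, a partner of the de novo DNA methyltransferases, and Car9, a carbonic anhydrase induced by hypoxia, each had 5 CG, with midpoints 223 and 130 bp away. The listed starts of Cd5 and Stat5a, and those of Stat5b and Dnmt3a below, are not at the outer end of the gene's span, so other starts may be in use.

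CpG-rich starts with no peak over them are shown beside these for comparison, also chosen after their values were seen.
Stat5b (chr11:100850582-100850831, minus strand): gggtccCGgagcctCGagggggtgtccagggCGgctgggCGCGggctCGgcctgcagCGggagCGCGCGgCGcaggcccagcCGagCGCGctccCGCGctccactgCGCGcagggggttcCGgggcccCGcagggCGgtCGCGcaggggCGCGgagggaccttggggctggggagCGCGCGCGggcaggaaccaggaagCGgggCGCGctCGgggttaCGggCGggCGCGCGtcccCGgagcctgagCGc
Dnmt3a (chr12:3806730-3806979, plus strand): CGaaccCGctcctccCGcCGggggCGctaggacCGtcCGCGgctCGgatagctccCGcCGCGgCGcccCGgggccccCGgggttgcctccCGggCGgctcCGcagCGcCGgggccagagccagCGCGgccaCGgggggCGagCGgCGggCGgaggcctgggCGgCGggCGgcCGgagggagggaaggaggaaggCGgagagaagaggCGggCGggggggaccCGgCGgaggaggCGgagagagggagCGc
Cebpb (chr2:167688665-167688914, plus strand): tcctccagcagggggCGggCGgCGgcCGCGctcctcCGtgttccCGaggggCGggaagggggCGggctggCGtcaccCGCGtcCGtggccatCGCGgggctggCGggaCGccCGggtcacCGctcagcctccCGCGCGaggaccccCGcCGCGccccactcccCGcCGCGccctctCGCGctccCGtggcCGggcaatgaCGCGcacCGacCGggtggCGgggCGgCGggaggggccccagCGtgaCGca

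Stat5b, the neighbour and close relative of Stat5a, had 40 CG in 250 bases and its nearest midpoint 1629 bp away, in the window of 58 peaks that also holds the Stat5a start. Dnmt3a, a de novo DNA methyltransferase, had 38 CG and its nearest midpoint 1321 bp away. Cebpb, a transcription factor of granulocytes and macrophages, had 41 CG and a midpoint 499 bp away. These sequences were picked for the contrast and do not show how common it was, and 48 of the 53 CpG-poor listed starts had no peak either. Over all starts in dense windows, a peak overlapped 29 of 1278 CpG-rich starts (2.27%, 95% Wilson interval 1.58 to 3.24%) and 158 of 840 CpG-poor starts (18.8%, 16.3 to 21.6%). Outside dense windows the shares were 1.90% and 4.92%. Peaks at a start count toward the 40 of its window, so higher shares in dense windows partly follow from the rule. Wilson intervals here cover counting error alone and take the items counted to be independent.

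The profile of peaks around starts showed how far the gap reached. At CpG-rich starts in dense windows there were 0.183 peaks per kb and start in the 500 bp before the start, 0.0720 in the 500 bp after it, 0.299 from 500 to 1000 bp and 0.612 from 1000 to 2500 bp into the gene. At CpG-poor starts the same bins held 0.476, 0.533, 0.517 and 0.596. The lower values at CpG-rich starts thus reached to 1000 bp into the gene, and from 1000 to 2500 bp the values of both classes were close. Positions in the list are coarse. Over all lines, the 256256 starts and ends past 67108864 bp, counted from 1, were multiples of 8, so bins narrower than these were not used.

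**Figure D1:**
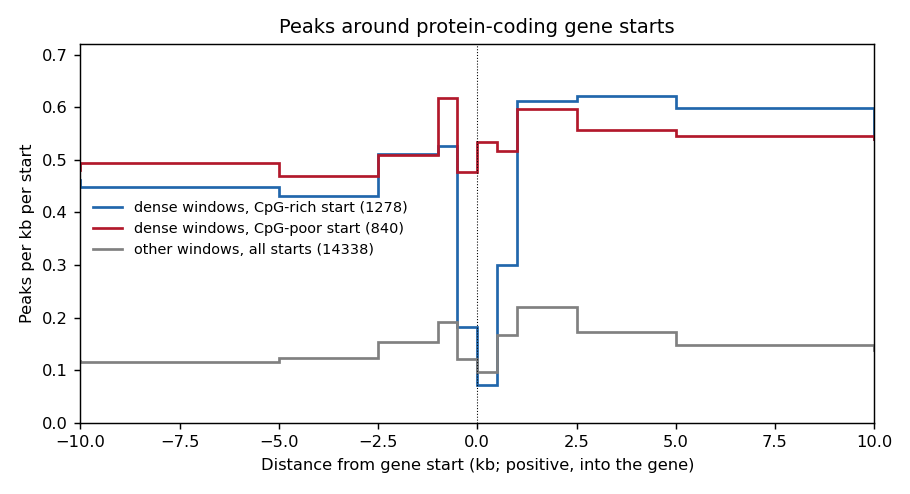
Peak midpoints per kb and start (vertical axis) against distance from the gene start in kb (horizontal axis, positive into the gene), for 1278 CpG-rich and 840 CpG-poor starts in dense windows and 14338 starts in other windows. The curve of CpG-rich starts in dense windows dips to 0.0720 just after the start, where that of CpG-poor starts is at 0.533, and both are near 0.6 from 1000 to 2500 bp.

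Starts in dense windows were CpG-rich more often than the others, 60.3% (58.2 to 62.4%) against 45.2% (44.4 to 46.0%). Their median GC content was 60.7% against 56.0%, and they had a median of 19 CpG per 300 bases against 13. Short motifs were searched in the 300 bases on both strands. The ETS motif CCGGAAGT was in 7.18% of dense-window starts and 5.44% of all starts, and the PU.1 motif GAGGAAGT was in 3.45% and 3.23%. The RUNX motif TGTGGT was in 13% and 14.9%, and the C/EBP motif TTGCNNAA was in 7.55% and 10.3%. The hypoxia response motif ACGTG was in 23.3% of dense-window starts and 20.9% of all. The ETS and hypoxia motifs, which hold CG, were thus in a somewhat larger share of dense-window starts than of all starts. For the hypoxia motif the intervals met, 21.5 to 25.1% against 20.3 to 21.5%. Of the motifs without CG, RUNX and C/EBP were in a smaller share and PU.1 in nearly the same share. Motifs were not compared within CpG-rich and CpG-poor starts, so a link to CpG content was not tested. A match describes letters only and no binding was measured.

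The number of peaks per window was strongly skewed. Of all autosomal windows, 9568 (39.8%) had no peak, the median was 1.00 and the mean 8.62. Dense windows had a median of 50 peaks, with quartiles of 44 and 59 and a highest value of 99. There were 300 windows with 60 or more peaks and 38 with 80 or more. The threshold did not fall at a break in the distribution, since 59 windows had 39 peaks and 80 had 40, and the median number of protein-coding genes was 2 in both.

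**Figure D2:**
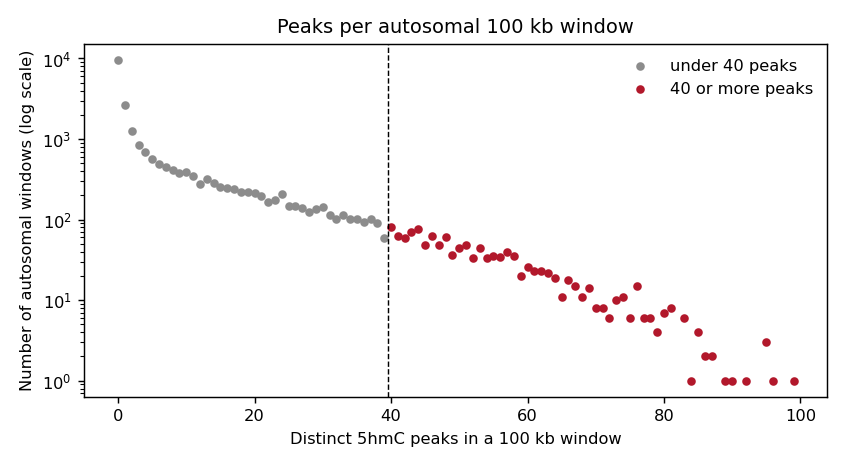
Number of autosomal 100 kb windows (vertical axis, log scale) by number of peaks in the window (horizontal axis), with the line at 40 peaks marking the rule. The 1272 dense windows form the tail up to 99 peaks, with no gap at the line.

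Dense windows lay on all 19 autosomes in unequal shares. Chromosome 11 had the highest share of dense windows, 10.3% (122 windows), and chromosome 17 followed with 9.79% (90). Chromosome 3 had the lowest, 2.04% (32), and chromosomes 1 and 18 each had 2.96%. On chromosome 17, 42.9% of the peaks lay in dense windows, against 17.6% on chromosome 3.

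Within dense windows the peaks were not all piled at 1 spot. When each window was split into 10 bins of 10 kb, all 10 bins held a peak in 961 windows (75.6%). The median gap between neighbouring midpoints was 1180 bp, against 3704 bp in windows with 1 to 39 peaks. Both values depend on the rule, since a window with more peaks tends to have more filled bins and shorter gaps. Whether the peaks were spread evenly or clustered within dense windows was not tested. The fullest bin had a median of 10 peaks and at most 17, in Arid1b, a subunit of the BAF chromatin remodelling complex, and in Sema4b, a semaphorin. Bins of 16 peaks lay at Plxnc1, at Lrp1, at Krt80 and at Daglb and Rac1. Among the bins of 15, those named for their role lay at Ncf1, which encodes a cytosolic part of the oxidase of phagocytes, and at Pik3cd, the PI3-kinase catalytic subunit of leukocytes. Others of 15 lay at Chst11, Map3k9, Sh3bp5 and Rbfa, and at F7 and F10 together, among further places. Peaks had the same median width in dense windows and elsewhere, 65 bp with quartiles of 49 and 81. Past 67108864 bp all starts and ends were multiples of 8, so small differences in width could not be seen there. The share of intervals listed more than once was also close, 6.82% against 6.27%.

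Dense windows were rich in genes. They overlapped a median of 2 protein-coding genes and a mean of 2.77, against a mean of 1.61 in windows with 1 to 39 peaks and 0.603 in windows with none. The share of windows that were dense was 0.700% among those with no protein-coding gene and 4.68% with 1. It was 11.7% with 3 or 4 genes, 21.6% with 5 to 9, and 35.7% (20 of 56, 24.5 to 48.8%) with 10 or more. Gene spans covered 65.6% of the bases of dense windows and held 70.8% of their peaks (70.4 to 71.1%). In windows with 1 to 39 peaks the values were 48.7% and 61.8%. The share of peaks in genes thus exceeded the share of bases by less in dense windows than in these. Gene length showed no such order. The share of genes overlapping a dense window was 11.6% for spans up to 5 kb, 18.2% from 5 to 20 kb and 10.6% above 200 kb.

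The densest windows each lay mainly within 1 gene, as the plot of the 11 fullest windows shows. Cmip, an adaptor of T cell signalling, filled the first (chr8:117300001-117400000) with 99 peaks, all in its span. Prex1, a Rac exchange factor of neutrophils, held all 96 peaks of chr2:166600001-166700000. Mtss1, a membrane-bending actin regulator, held 88 of 95 peaks of chr15:59000001-59100000. Cyrib, a Rac1-binding regulator of actin, held 66 of the 95 in chr15:64000001-64100000, and Asap1, an Arf GTPase-activating protein, held 13.

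Fam53b held 83 of 95 peaks of chr7:132700001-132800000. In chr10:60300001-60400000 the hearing gene Cdh23 held 88 of 92 peaks, and 51 of the window's peaks lay in Vsir, which encodes the immune checkpoint receptor VISTA. The spans of these genes overlap, so a peak there counts for both and its gene cannot be decided. Itpk1, an inositol phosphate kinase, held all 90 peaks of chr12:102600001-102700000. Nfatc1, a calcium-regulated transcription factor of lymphocytes and osteoclasts, held 84 of 89 in chr18:80600001-80700000. Sema4d, a semaphorin of lymphocytes, held 83 of 87 in chr13:51700001-51800000.

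Runx1, a master regulator of blood stem cells that is often mutated in AML, held all 87 peaks of chr16:92700001-92800000. Gfod1 held all 86 of chr13:43200001-43300000. Each of these 11 windows had a peak in all 10 bins, and their median gaps were 714 to 910 bp. The genes that led them spanned 102 to 394 kb, so all of them reached past the window.

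**Figure D3:**
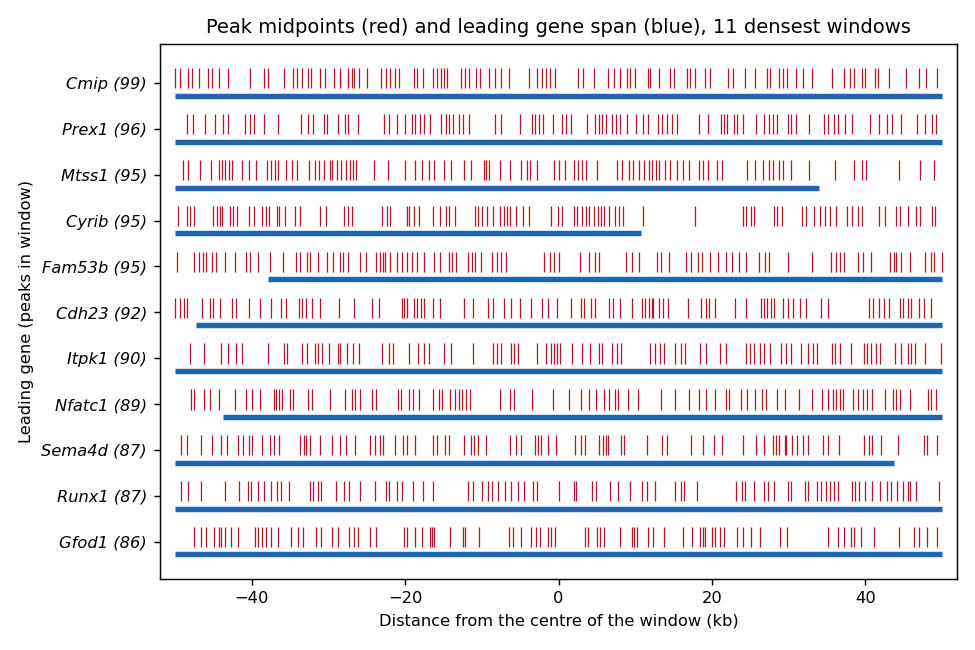
Peak midpoints (red ticks) and the span of the leading gene (blue bars) in each of the 11 fullest windows, against distance from the window's centre in kb, with the number of peaks in parentheses. Ticks run across the whole window in each row, and the bars end inside the window for Mtss1, Cyrib, Fam53b, Cdh23, Nfatc1 and Sema4d.

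Across all dense windows peaks were often split between genes. A single span held at least 80% of the peaks in 325 windows (25.6%) and all of them in 155 (12.2%). In 67 windows (5.27%) no protein-coding span held a peak. The windows had 1074 different leading genes.

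Dense windows lay beside each other. Of the 1272, 772 (60.7%, 58.0 to 63.3%) adjoined another dense window, and they formed 785 runs, of which 500 were single windows and 181 were pairs. The other 104 runs had 3 or more windows and held 410 windows (32.2%). The windows 100 kb from a dense window had a mean of 35 peaks and 38.3% of them were dense, against 24.2% at 200 kb, 16.3% at 500 kb and 8.09% at 5000 kb. At 5000 kb the mean was 11.2 peaks, above the mean of all windows, 8.62. Since long genes and gene-rich stretches cross window edges, neighbouring windows are not independent.

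**Figure D4:**
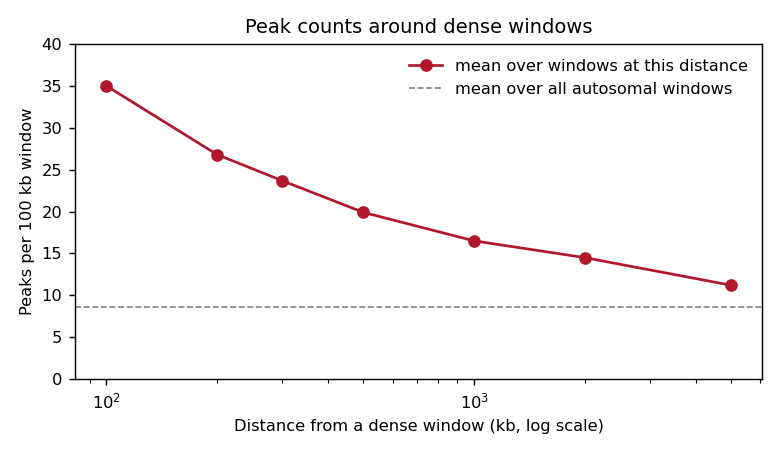
Mean number of peaks in windows at a given distance in kb from a dense window (horizontal axis, log scale), with the mean of all autosomal windows, 8.62, as a dashed line. The mean falls from 35 at 100 kb to 11.2 at 5000 kb.

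The longest run, chr8:119700001-120800000, had 11 windows and 677 peaks. Gse1, a component of histone deacetylase complexes, held 255 of them. Cotl1, an F-actin-binding protein, held 36, Usp10, a deubiquitinase, held 25, and Irf8, the transcription factor of monocytes and dendritic cells, held 22. On the same chromosome chr8:122300001-123100000 had 8 windows and 529 peaks, with 69 in Cbfa2t3, which encodes the corepressor ETO2. In that run Piezo1, a mechanosensitive ion channel, held 53, Zfpm1, the GATA cofactor FOG1, held 26, and Cyba, a membrane part of the phagocyte oxidase, held 9. Genes were named here by role, and others held more peaks than some of these, such as Crispld2 with 48 in the first run and Galns with 31 in the second. The 2 runs thus held blood regulators beside many other genes, such as Ankrd11, a chromatin regulator with 117 peaks.

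A second kind of run was made of many short genes. In chr10:79700001-80700000, 10 windows held 564 peaks and 60 protein-coding genes, and no gene held more than 38 (Sbno2). Arid3a, a B cell transcription factor, held 26, Tcf3, which encodes the E proteins of B cell development, held 21, and Stk11, the kinase LKB1, held 14. The neutrophil proteases Elane and Prtn3 had 2 each. In chr10:80900001-81600000, 7 windows held 421 peaks and 41 genes, among them Gng7 with 45, Gna15, a G protein of blood cells, with 15, and Zbtb7a, a repressor of fetal globin, with 14.

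Receptor genes lay together in several runs, and the counts are of peaks within the run. The genes were named by role, and others in these runs held more peaks. Examples are Elfn2 and Triobp with 26 each on chromosome 15, Itsn1 with 79 on chromosome 16 and Scnn1a with 20 on chromosome 6. In chr15:78300001-79000000 the run held Csf2rb with 14 peaks, Csf2rb2 with 2 and Il2rb with 8, which encode beta chains of cytokine receptors, beside the haematopoietic GTPase Rac2 with 14. In chr16:91400001-91900000 it held the interferon and interleukin-10 receptor genes Ifngr2 with 19, Ifnar1 with 13, Il10rb with 13 and Ifnar2 with 3. In chr6:125000001-125600000 it held Cd9, a tetraspanin of platelets, with 36, Vwf, von Willebrand factor, with 16, and the receptor genes Tnfrsf1a with 10 and Ltbr with 7. In chr17:28700001-29500000, Mapk14, the kinase p38α, held 32 peaks, while Cdkn1a, the cell cycle inhibitor p21, held 4 and the kinase gene Pim1 held none. A run could also be a single gene: all 294 peaks of chr6:99000001-99500000 lay in Foxp1, a transcription factor of B cell development and monocytes. In chr7:80000001-80500000, Idh2 held 16 peaks beside Furin with 16 and the myeloid tyrosine kinase gene Fes with 9. Mutant IDH2 is among the drivers of the leukaemia, but whether this mouse locus carries the mutation is not given.

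Genes were then read by role from 14 lists, described by how many of their autosomal members overlapped a dense window. Of these, 11 are called the blood lists: those on blood lineages, signalling, chromatin, cytosine marks, leukaemia and hypoxia. They include genes not particular to blood, such as Gapdh. With each gene counted once, 135 of their 339 genes overlapped a dense window (39.8%, 34.8 to 45.1%), beside 15.5% of all protein-coding genes. The lists were written with earlier results of these data known, so the shares are descriptions. The peaks given for a gene are those in dense windows, and where the gene held others its total follows.

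**Figure D5:**
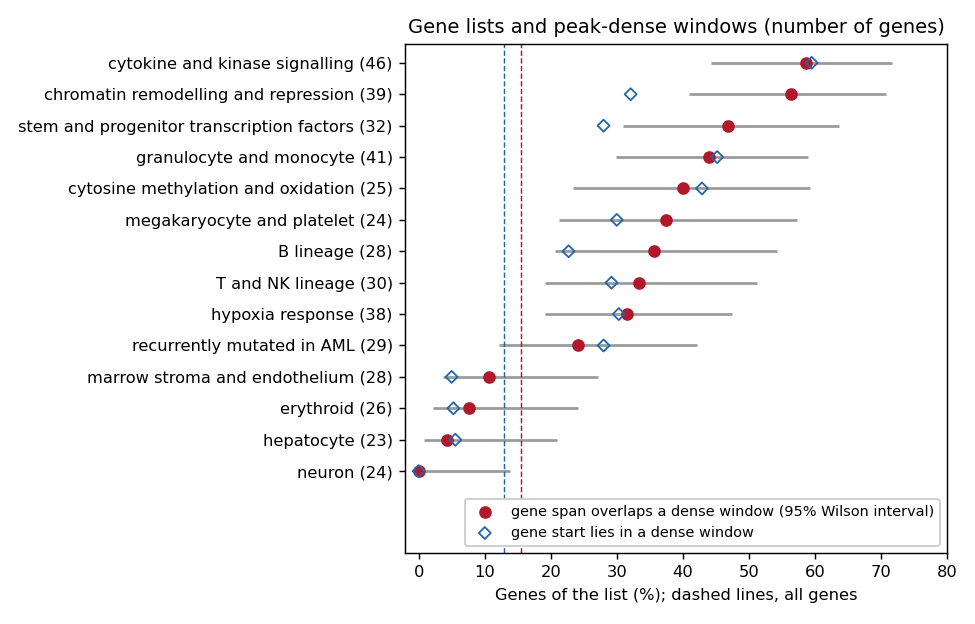
Share of each list's autosomal genes (horizontal axis, percent) whose span overlaps a dense window (red points, bars are 95% Wilson intervals) or whose start lies in one (blue diamonds), with the number of genes in parentheses and dashed lines at the shares of all genes, 15.5% for spans (red) and 12.9% for starts (blue). Signalling and chromatin genes lie highest by span, at 58.7% and 56.4%, and the stroma, erythroid, hepatocyte and neuron points lie below the lines.

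Cytokine and kinase signalling had the highest share, 27 of 46 genes (58.7%, 44.3 to 71.7%). Syk, the kinase below B cell and Fc receptors, had 57 peaks, all in dense windows. Tgfbr2, a TGF-β receptor, had 49 of 56, the adaptor Grb2 had 47 of 52, and Pik3cd had 45. Among the STAT genes, the transcription factors activated by JAK kinases, Stat5b had 47, Stat3 had 30 and Stat5a had 16. The inhibitory genes Cbl, Inpp5d and Sh2b3 had 34, 33 of 34 and 17. The receptor tyrosine kinase genes of progenitors did not overlap a dense window, although Kit had 38 peaks and Flt3 had 34 in their spans. Jak2, with 9 peaks, did not either.

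Chromatin genes followed with 22 of 39 (56.4%, 41 to 70.7%). Beside Gse1, Arid1b had 201 of its 235 peaks in dense windows, Chd7 had 64 of 103 and Arid1a 51. The class IIa histone deacetylase genes Hdac4, Hdac7 and Hdac5 had 45 of 76, 43 and 24 of 26. Among genes of Polycomb complexes, Ezh2, Ezh1 and Suz12 overlapped no dense window, while Cbx7 had 20 peaks there, Kdm2b 36 of 48 and Jarid2 12 of 55. These spans are long, with a list median of 78.0 kb, and when only starts were counted the share was 9 of 28 (32.1%).

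Stem and progenitor transcription factors reached 15 of 32 (46.9%, 30.9 to 63.6%). Runx1 held 184 peaks over 3 dense windows and Etv6, an ETS repressor needed by marrow stem cells, held 178 over 3. Fli1, an ETS activator, held 85, and Erg, its close relative, 54 of 89. Bcl11a, a repressor of fetal globin, held 62 of 71, Zeb2 50 of 60, Ikzf1 49 of 62, and Myb 26. The AML homeobox genes lay outside dense windows, with 0 peaks in Hoxa9 and 6 in Meis1, and so did Tal1 with 4. Gata2 had 1 peak in a dense window, of 6 in the gene. Lyl1 overlapped a window of 47 peaks and held none of them.

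Granulocyte and monocyte genes reached 18 of 41 (43.9%, 29.9 to 59.0%). The integrin genes Itgb2 and Itgam had 29 and 22, the M-CSF receptor gene Csf1r had 25, and the Fc receptor gene Fcgr3 had 16. Irf8 and Ltf, the granule protein lactoferrin, had 22 each, and Ncf1 had 14 in a window of 77. Spi1, which encodes PU.1, had 14 of its 25 peaks in a dense window. A full window did not always mean peaks in the gene. Mpo, neutrophil myeloperoxidase, had 2 of its 6 peaks in a window of 66, and Cebpb had none in a window of 67. S100a8 and S100a9, abundant neutrophil proteins, had 2 each and lay outside dense windows, as did Cebpa with 1 and the surface receptor genes Cd33 with 5, Csf2ra with 3, Ccr2 with 1 and Cd14 with 0.

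The lymphoid lists were lower, with 10 of 28 B lineage genes (35.7%, 20.7 to 54.2%) and 10 of 30 T and NK lineage genes (33.3%, 19.2 to 51.2%). Bach2, a repressor of B and T cell differentiation, had 140 of 172 peaks in 3 dense windows, and Ikzf3 had 28 of 48. The B cell factor genes Pax5 and Ebf1 had 48 and 56 peaks but overlapped no dense window. Notch1, a receptor of T cell commitment, had 40 peaks and Il4ra, the interleukin-4 receptor, had 28. Of the CD3 genes, Cd3d had 4, Cd3e 1 and Cd3g 1, all outside dense windows. The intervals of the myeloid and lymphoid lists overlapped widely.

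Of the erythroid genes, 2 of 26 overlapped a dense window (7.69%), and the interval, 2.14 to 24.1%, includes the 15.5% of all genes. Sptb, a spectrin of the red cell skeleton, had 14 of its 41 peaks in a dense window, and Tfrc, the transferrin receptor, had 1. The globin genes Hba-a1, Hbb-bs and Hbb-bt had 1 peak each and Hba-a2 had none, all outside dense windows, and the erythroid factor Klf1 had 3. Megakaryocyte and platelet genes reached 9 of 24 (37.5%, 21.2 to 57.3%). Tbxas1, thromboxane synthase, had 58 of 93, and the platelet integrin gene Itgb3 had 47. Pf4, platelet factor 4, had 1 and lay outside. Erythroid and megakaryocyte genes, which belong to related lineages, thus had intervals that overlapped only between 21.2 and 24.1%, and their difference was not tested.

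Genes that write, read or remove cytosine marks overlapped dense windows in 10 of 25 cases (40.0%, 23.4 to 59.3%). Dnmt3a had 57 of its 63 peaks in a dense window, and the maintenance genes Dnmt1 and Uhrf1 had 28 and 18. Among the TET genes Tet3 had 47 of 61, while Tet2 with 23 and Tet1 with 16 lay outside dense windows. Idh2 had 16, and Idh1, with 7, lay outside. Recurrently mutated AML genes reached 7 of 29 (24.1%, 12.2 to 42.1%), and these were Runx1, Etv6, Dnmt3a, Cbl, Ptpn11, Idh2 and Gata2. The interval includes the 15.5% of all genes. Npm1 had 1 peak and lay outside, as did Flt3 with 34 peaks. Of the mouse genes that correspond to the 4 mutant drivers of the leukaemia, Dnmt3a and Idh2 thus overlapped dense windows and Flt3 and Npm1 did not. How the mutations were delivered is not given, so whether these mouse loci carry them is unknown.

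Hypoxia response genes reached 12 of 38 (31.6%, 19.1 to 47.5%). The glycolytic genes Hk1 and Hk2 had 45 of 58 and 34, and Pfkfb3 had 34 of 47. Mxi1, a MYC antagonist, had 42, and Vegfa, the endothelial growth factor, had 15. Hif1a itself, with 1 peak, and Epas1, with 14, lay outside dense windows. Vhl, which marks HIF for degradation, had 4 peaks in a window of 73.

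Genes of cells other than blood were read the same way. Marrow stroma and endothelium reached 3 of 28 (10.7%, 3.71 to 27.2%), and these were Runx2 with 58 of 96, Pecam1 with 47 and Eng with 13. Runx2 is also on the progenitor list, and Pecam1 and Eng are known in blood cells too. Outside dense windows, Pdgfrb, a receptor of pericytes, had 19 peaks and Vcam1 and Col1a1 had 6 each, while Cxcl12, Lepr and Kitl had 0. Hepatocyte genes reached 1 of 23 (4.35%, 0.772 to 21.0%), with 7 peaks in Hpd, and neuron genes 0 of 24 (upper bound 13.8%). The neuronal genes Camk2b and Camk2a had 27 and 19 peaks outside dense windows, so an absence from dense windows was not an absence of peaks.

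The order of the lists changed when a gene was counted by its start rather than its span. Signalling genes remained highest, at 22 of 37 starts (59.5%). Granulocyte and monocyte genes followed at 14 of 31 (45.2%), and genes of cytosine marks at 9 of 21 (42.9%). Progenitor transcription factors came to 7 of 25 (28%). Over the blood lists together the share was 90 of 268 (33.6%, 28.2 to 39.4%), beside 12.9% of all starts.

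In 67 dense windows, with 3540 peaks, no protein-coding span held a peak. The nearest protein-coding gene was within 20 kb in 28 of them and more than 100 kb away in 10, and the median distance was 30.9 kb. The fullest, chr8:126600001-126700000, had 83 peaks and no annotated gene, and lay 6.01 kb from Irf2bp2, a transcriptional corepressor. The windows beside it had 53 and 73 peaks and also no peak in a protein-coding span, so the peaks formed a block. Next came chr2:167700001-167800000 with 81 peaks, 9.57 kb from Cebpb, so the start of Cebpb, shown above without a peak, had peak-dense DNA downstream of the gene.

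Some other such windows nearest to regulators of blood cells are named here, picked by role. How many of the 67 were nearest to such genes was not counted. Fuller windows were nearest to other genes, such as Tomm20 with 79 peaks in the window and Cryaa and Bcas1 with 73 each. The Tomm20 window, chr8:126800001-126900000, belongs to the same run of 4 dense windows as the block near Irf2bp2. In it, 75 of the 79 peaks lay in the non-coding gene Gm31718. The window chr4:135000001-135100000 had 66 peaks, 20.6 kb from Runx3, a transcription factor of T and NK cells. The window chr1:128600001-128700000 had 54 peaks and no annotated gene, 7.70 kb from Cxcr4, the chemokine receptor that holds stem cells and neutrophils in marrow. Id2, an inhibitor of E proteins, was 3.91 kb from chr12:25100001-25200000, with 54 peaks, 45 of them in the non-coding gene Gm36287. Trib1, a regulator of C/EBPα degradation, was 42.9 kb from chr15:59700001-59800000, with 60 peaks. Nearness is a description, and which gene these peaks belong to was not measured.

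Some of these windows lay on long non-coding RNA genes. The window chr2:128400001-128500000 had 62 peaks, 24 of them in Morrbid, a non-coding RNA known to control the survival of neutrophils, eosinophils and monocytes. All 55 peaks of chr6:31100001-31200000 lay in Lncpint. In chr19:53400001-53500000, 23 of 76 peaks lay in Mirt1, and the window was 9.30 kb from Smndc1, a splicing factor gene, and 26.7 kb from Mxi1.

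At the other extreme were windows crowded with genes. The window chr19:6900001-7000000 had 63 peaks over 16 protein-coding genes, led by Plcb3, a phospholipase C, with 24, and including the apoptosis gene Bad with 6. In the major histocompatibility region, chr17:35100001-35200000 had 61 peaks over 13 genes, with 10 in Prrc2a, 5 in the macrophage gene Aif1 and 2 in the lymphotoxin gene Ltb. Repeated intervals were common in some of these windows. In chr9:107500001-107600000, led by Zmynd10 among 14 genes, 31 of 50 intervals (62%) were listed more than once. The highest share was in a window with 1 gene, chr16:23200001-23300000, where 35 of 51 intervals (68.6%) in and around St6gal1, a sialyltransferase of B cells, were repeated. Each interval was counted once throughout, so repeats did not make a window dense.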

How the data were processed

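5hmC was captured from sonicated marrow DNA by glucosylation and biotin and sequenced. The deposited lists hold only a chromosome, a start and an end per peak, called by the authors with PICS per the file headers, and carry no count or score. The build is mm10, per the submitters' processing notes. No source used here names an aligner. Repeated lines (14799) were dropped, leaving 208468 distinct peaks. Midpoints were assigned to 100 kb windows and to RefSeq GRCm38.p6 gene spans, which carry no exons or strand, and gene models that start below 3 Mb were left out. Intervals are 95% Wilson intervals. Python 3.11.15, pandas 2.3.3, NumPy 2.4.6 and SciPy 1.17.1 were used, and the counting was checked on simulated windows. Named genes were the leading genes of the 12 fullest windows (1 is not reported here), genes of runs of 3 or more windows, up to 5 genes per list by peaks in dense windows, and genes of windows without a peak in a protein-coding span or with the most genes or repeats. Further list members were named for their role, as were many genes of runs, bins and windows. These and the printed sequences were chosen after values were seen. The windows and lists were chosen with earlier results of these data known. No test was made, because there is 1 list without replicates.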

Additional observations from a re-analysis of the deposited data

How the results depend on the processing

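The choice of 40 peaks set most values. With 30 or more peaks there were 2298 windows with 102180 peaks, 68.9% of the peaks were in gene spans, 73.2% of windows adjoined another, and 58.7% of blood list genes overlapped one, beside 26.4% of all genes. With 50 or more the values were 667 windows, 40628 peaks, 72.1%, 44.8% and 24.2%, beside 7.83%. With repeated lines kept, 72.6% of peaks were in gene spans, 63.9% of windows adjoined another and 47.2% of blood list genes overlapped one, beside 20.7%. Windows shifted by 50 kb gave 70.2% of peaks in gene spans. Counting all annotated genes gave 77.2%, beside 70.1% of other peaks. Counting gene starts, added after the data were seen, gave 33.6% of blood list genes, beside 12.9%. The blood lists stayed above the share of all genes in each of these. Assigning peaks by their start gave 1273 windows. Leaving out either replicate gave 1272 windows both times, since the lists are identical, which says nothing about stability. No paired analysis was possible because the lists are identical and no test was made.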
